A study of Mus musculus with 21 samples.

Results

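Striatal projection neurons make up most of the neurons of the striatum, and they were followed here in brain RNA through 9 genes, Drd1, Drd2, Adora2a, Ppp1r1b, Rgs9, Pde10a, Penk, Tac1 and Pdyn, out of the 16318 genes of the count table. The genes were chosen by name for their known use by these neurons, with earlier results of these data known, and all 9 passed the filter on low counts that left 16303 genes for testing. Projection neurons of the direct pathway carry the dopamine receptor Drd1 and the peptides made from Tac1 and Pdyn, and those of the indirect pathway carry Drd2, the adenosine receptor Adora2a and the peptides made from Penk. Drd1 raises and Drd2 lowers cyclic AMP in these cells, Pde10a breaks the messenger down, and Ppp1r1b and Rgs9 act on the signal that follows. The genes are used as markers of the striatum because few other brain regions express them as strongly, although the peptide genes and the dopamine receptors are also made elsewhere in the brain.

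RNA came from the brains of 21 SAMP8 mice, an inbred strain with accelerated senescence that is used as a model of sporadic Alzheimer's disease, and each library was made from 1 mouse. Dosing began at 4 months of age and lasted 8 weeks, with a subcutaneous injection every other day, and the brains were taken at 6 months after perfusion with phosphate-buffered saline (PBS). The control group received PBS (12 mice, 6 female and 6 male), and the treated group received 1 mg/kg of HsTX1[R14A], a peptide that blocks the potassium channel Kv1.3 (9 mice, 3 female and 6 male). All 21 mice carry the SAMP8 background, and libraries of its control strain SAMR1 were not analysed here. The comparison of the groups asks how brain RNA differs after Kv1.3 blockade by a peptide given under the skin.

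Estimated counts, which the authors deposited without normalization, summed to between 14917174 and 36207554 per PBS mouse and between 17552413 and 47613792 per HsTX1[R14A] mouse. Each gene studied here had at least 344 counts in every mouse, so the spread between mice and not the number of reads set the precision. Levels are given in CPM, which put the count of a gene on a library total that is the same for all mice, after TMM scaling, which corrects library totals for a few dominant genes. The labels give brain as the tissue, and some cerebellar transcripts were near 0 in most libraries. Gabra6, a receptor subunit of cerebellar granule cells, lay below 1 CPM in 16 of 21 mice and reached 90.1 CPM in HsTX1[R14A] male 74. Of the other cerebellar genes followed, Pcp2 lay below 1 CPM in 16 mice and Cbln3 in 12. Cbln1, Neurod1, Car8, Calb1 and Itpr1 stood at 5.97 CPM or more in every mouse. Snap25, a synaptic gene of all neurons, ranged from 1709 CPM (mouse 71) to 3688 CPM over the 21 mice. The header of the table names libraries in 2 forms, the more common one for 10 PBS and 5 treated mice, and what the forms stand for is not stated.

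The genes studied here were lowest in 3 libraries, of which mouse 71 lay farthest from the rest. The log2 CPM of each gene was centered on its mean over the 21 mice and averaged over the 9 genes, which gave -1.50 for HsTX1[R14A] female 71, -0.84 for PBS male 82 and -0.58 for PBS male 101. The other 18 mice lay between -0.31 (PBS female 85) and 0.39 (HsTX1[R14A] male 89). In RNA of a tissue, fewer projection neurons, less RNA per neuron and a smaller share of striatum in the tissue taken cannot be told apart. Results that rest on these libraries are therefore given with and without them, a choice made after the values had been seen.

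**Figure D1:**
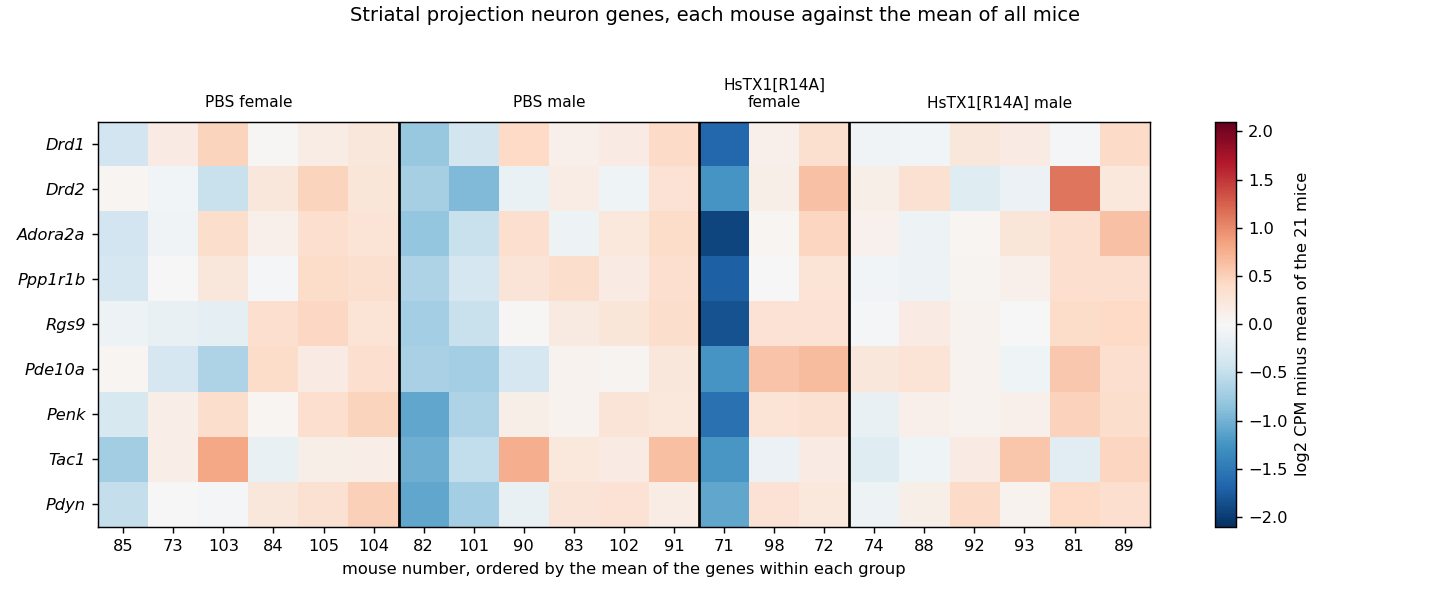
Log2 CPM of the 9 genes (rows) in each of the 21 mice (columns, by group), as the difference from the mean of all mice, with red above and blue below that mean. Mouse 71 is the darkest blue column, and mice 82 and 101 are blue in all 9 rows.

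In PBS mice the 9 genes fell into a high and a low range when the level was divided by the length of the longest annotated transcript. Penk, the precursor of the enkephalins, stood at 269 ± 71.1 CPM per kb (SD, n = 12), and Ppp1r1b, the gene of DARPP, an inhibitor of protein phosphatase 1 that is switched on by cyclic AMP, at 267 ± 57.9 CPM per kb. These levels did not differ beyond their spread, since Penk was the higher of the pair in 7 of 12 mice. Tac1, which encodes substance P, followed at 39.6 ± 14.5 CPM per kb, with Pde10a at 33.8 ± 9.06 CPM per kb, and Tac1 was again the higher in only 7 of 12 mice. Rgs9 reached 27.2 ± 6.27 CPM per kb and Adora2a 24.7 ± 6.04 CPM per kb. The lowest levels per length were those of Drd1 at 20.2 ± 4.75, Pdyn, the dynorphin precursor, at 19.6 ± 5.60 and Drd2 at 13.04 ± 3.45 CPM per kb. Drd1 exceeded Pdyn in 7 of 12 mice, whereas Pdyn exceeded Drd2 in all 12. Which transcript of a gene was used in these brains was not examined.

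The 9 genes varied together from mouse to mouse in the PBS group. Of their 36 pairs, 28 were correlated with a positive sign by Pearson's r (log2 CPM over 12 mice, permutation test with 100000 resamples, two-sided, adjusted p of at most 0.05 over the 36 pairs), and the median r was 0.81. The closest pair was Drd1 and Tac1, both of the direct pathway, with r = 0.97 and rho = 0.91 (adjusted p = 0.00036 and 0.0018, permutation test), and r = 0.95 without the 2 mice farthest from the median of Drd1. Next came Drd1 with Adora2a, a gene of the other pathway, with r = 0.95 and rho = 0.87 (adjusted p = 0.00036 and 0.00382, permutation test), and r = 0.87 without those mice. The receptors that name the pathways, Drd1 and Drd2, had r = 0.50 and rho = 0.15 (adjusted p = 0.107 and 0.673, permutation test). In the 10 PBS mice whose libraries carry the more common name form the median r was 0.81 and 25 pairs passed. The share of all gene pairs that would pass the same test in these mice was not counted. The counts of pairs here and below therefore stand without a background, and they do not show that these genes pass more often than others.

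Much of this rested on the mice with the lowest levels. Without PBS males 82 and 101, 14 of the 36 pairs passed by Pearson's r over the 10 remaining mice and the median r was 0.50, and 21 passed without mouse 82 alone. In these 10 mice Drd2 went with Pde10a (r = 0.87) and with Rgs9 (r = 0.81), and Rgs9 with Pde10a (r = 0.84), with adjusted p of 0.016, 0.0199 and 0.0199 (permutation test). Spearman's rho was 0.82, 0.85 and 0.87 for these 3 pairs (adjusted p = 0.0516, 0.0436 and 0.0436, permutation test), so Drd2 with Pde10a did not pass by rho. Without the 2 mice farthest from the median of the first gene r was 0.85, 0.67 and 0.66. Drd1 went with Tac1 (r = 0.97), Adora2a (r = 0.86), Penk (r = 0.78) and Ppp1r1b (r = 0.76), with adjusted p of 0.00288, 0.0199, 0.0471 and 0.0471 (permutation test). The rho of these pairs was 0.84, 0.78, 0.66 and 0.31 (adjusted p = 0.0436, 0.0739, 0.194 and 0.54, permutation test), so only Drd1 with Tac1 passed by rho. Without the 2 farthest mice r was 0.94, 0.62, 0.23 and 0.45, so the relations of Drd1 with Penk and Ppp1r1b rested on those mice. For Drd2, Rgs9 or Pde10a with Drd1, Adora2a, Ppp1r1b, Penk or Tac1, r ranged from -0.48 (Pde10a and Tac1) through -0.28 (Drd1 and Drd2) to 0.49 (Ppp1r1b and Rgs9), and none of these pairs passed. Pdyn passed by Pearson's r both with Rgs9 (r = 0.73, adjusted p = 0.0457) and with Penk (r = 0.74, adjusted p = 0.0471, permutation test). The rho of these pairs was 0.67 and 0.54 and did not pass (adjusted p = 0.194 and 0.317, permutation test). Without the 2 farthest mice r was 0.85 and 0.03, so the relation with Penk rested on those mice. Adora2a of the indirect pathway stood closer to Drd1 and Tac1 of the direct pathway than to Drd2 (r = 0.86, 0.79 and -0.01), an order read off after the values had been seen and not tested.

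**Figure D2:**
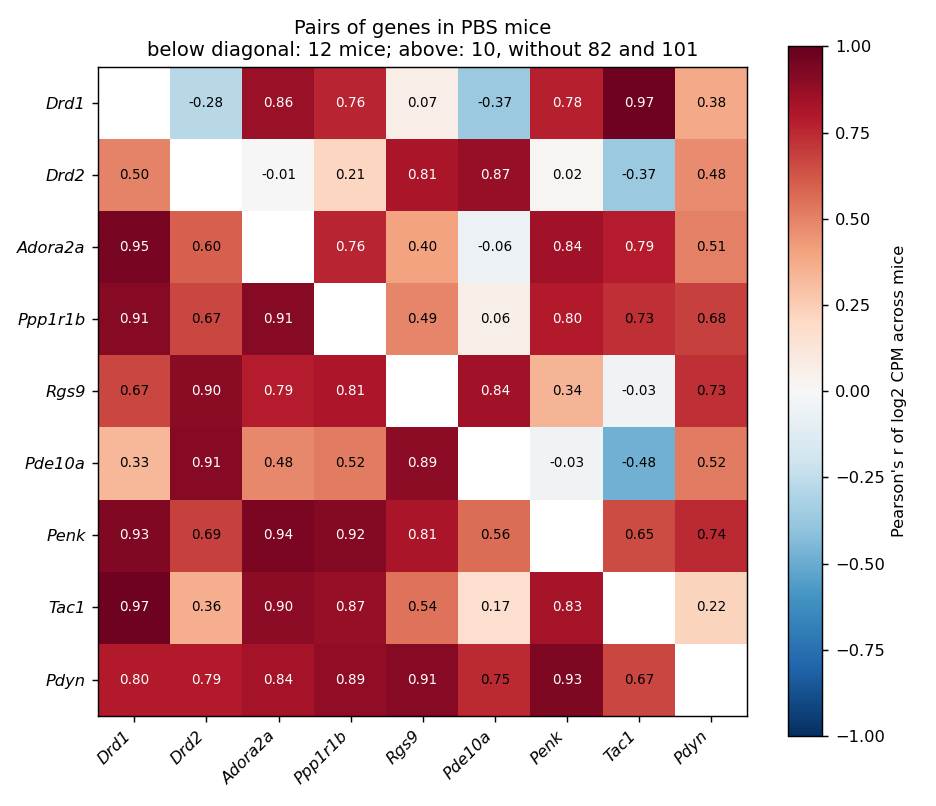
Pearson's r of log2 CPM across PBS mice for each pair of genes, with all 12 mice below the diagonal and the 10 mice other than 82 and 101 above it. Drd2, Rgs9 and Pde10a keep r of 0.81 to 0.87 with each other above the diagonal, while Drd1 and Drd2 go from 0.50 to -0.28.

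The dependence of counts on transcript length differed between libraries, and over all 12 PBS mice no gene of the 9 passed a test of its relation to it. For each library the centered log2 CPM of all genes was regressed on log2 of the longest transcript's length, and the slope was -0.076 ± 0.161 (SD, n = 12) under PBS and 0.102 ± 0.119 (SD, n = 9) under HsTX1[R14A]. Across the 12 PBS mice the slope had r = 0.72 and rho = 0.68 with Pde10a, whose longest transcript of 7769 bases is the longest of the 9, and r = -0.54 and rho = -0.50 with Tac1, at 1975 bases. Neither passed with adjustment over the 9 genes (adjusted p = 0.0748 and 0.164 for Pde10a and 0.279 and 0.209 for Tac1, permutation test), and without the 2 mice farthest from the median slope r was 0.70 for Pde10a and -0.09 for Tac1, so that of Tac1 rested on those mice. Within the more common library name form r was 0.68 for Pde10a and -0.59 for Tac1. The slope also had r = 0.50 with Drd2, 0.37 with Rgs9, 0.21 with Pdyn and -0.38 with Drd1. The part of length in the pairs above was not tested. Without mouse 82, 1 of the 9 relations passed, and the highest r was 0.84.

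The promoters of Drd2, Rgs9 and Pdyn are shown because Rgs9 went both with Drd2 and with Pdyn over the 12 PBS mice (r = 0.90 and 0.91, rho = 0.91 and 0.81, r = 0.81 and 0.73 without the 2 farthest mice) and these windows hold no annotated exon. Each is the 250 bases before a RefSeq transcription start (GRCm38.p6), 5′ to 3′ on the strand of the gene, with capitals for GGGCGG (GC box), CCAAT and TATAAA on either strand. The Drd2 window is chr9:49340153-49340402 (plus strand), that of Rgs9 chr11:109298182-109298431 (minus strand) and the Pdyn window shown is chr2:129699939-129700188 (minus strand). Another Pdyn window, chr2:129698659-129698908, lies before a different start and is not shown. It also holds no annotated exon, and its CCAAT lies 102 bases before that start.
Drd2: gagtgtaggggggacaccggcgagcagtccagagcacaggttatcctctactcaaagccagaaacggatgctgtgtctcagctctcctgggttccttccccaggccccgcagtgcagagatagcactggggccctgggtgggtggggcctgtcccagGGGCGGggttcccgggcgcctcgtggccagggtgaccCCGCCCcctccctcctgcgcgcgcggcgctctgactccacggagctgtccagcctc
Rgs9: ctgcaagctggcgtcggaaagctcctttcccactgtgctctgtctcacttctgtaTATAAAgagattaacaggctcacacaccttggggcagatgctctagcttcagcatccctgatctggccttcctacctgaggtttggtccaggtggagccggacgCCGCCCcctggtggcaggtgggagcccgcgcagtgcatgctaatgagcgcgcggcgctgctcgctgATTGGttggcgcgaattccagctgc
Pdyn: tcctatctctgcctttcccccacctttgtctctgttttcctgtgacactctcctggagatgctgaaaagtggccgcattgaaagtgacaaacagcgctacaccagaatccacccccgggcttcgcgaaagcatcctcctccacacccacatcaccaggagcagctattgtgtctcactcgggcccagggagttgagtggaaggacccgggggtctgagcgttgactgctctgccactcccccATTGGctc
Drd2 and Rgs9 both hold a GC box, which is in 32.7% of all 32851 promoter windows, with the first base 93 and 56 bases before the start of Drd2 and 91 bases before that of Rgs9. Rgs9 and Pdyn both hold CCAAT, found in 33.8% of windows, 25 and 8 bases before the start. A TATAAA run lies 195 bases before the start of Rgs9 and is in 12.4% of windows, and neither the cAMP response element TGACGTCA (1.55% of windows) nor its shorter form TGACG (17.8%) is in these 3 windows. TGACGTCA holds TGACG, so a window with the first is counted for both. Of the 9 windows on hand for 6 of the genes, 5 hold a GC box, 5 hold CCAAT and 1, that of Tac1, holds TGACG.

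Between treatments, none of the 9 genes was called. With sex in the model, 5144 of 16303 genes passed an adjusted p of 0.05 (31.6%; 15.5% higher and 16.1% lower in HsTX1[R14A] mice; quasi-likelihood test of edgeR, Benjamini-Hochberg adjusted over all genes), and 0 of the 9 did. None of the 9 had an unadjusted p under 0.05. With the same model limma/voom and DESeq2 also called 0 of them, beside 5201 and 6145 of all 16303 genes. The 9 genes had a median log2 fold change of 0.02, beside -0.01 over all genes tested, and 6 of 9 estimates were positive. The genes were also more variable than most, with a within-group SD of log2 CPM from 0.466 (Pdyn) to 0.559 (Tac1) against a median of 0.285 over all genes tested.

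Drd1 (chr13:54051183-54055705, minus strand, GRCm38) is the receptor through which dopamine excites the direct pathway. Its level was 39.3 CPM in the lowest PBS mouse, 76.0 at the median and 93.8 in the highest, and 21.6, 73.0 and 90.0 CPM in HsTX1[R14A] mice. The groups overlapped over most of their range, and the lowest values were those of mice 71 and 82. The log2 fold change was -0.08 (standard error, SE, 0.19, 95% interval -0.48 to 0.33, adjusted p = 0.777, edgeR).

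Drd2 (chr9:49340627-49408177, plus strand), the inhibitory dopamine receptor of the indirect pathway, is also made by dopamine neurons themselves. It ran from 17.8 CPM through a median of 33.6 to 46.8 in PBS mice and from 14.3 through 36.9 to 73.9 in HsTX1[R14A] mice. HsTX1[R14A] male 81 and female 72 exceeded all PBS mice, mouse 71 fell below all of them, and the other 6 treated mice lay within the PBS range. The log2 fold change was 0.26 (SE 0.22, 95% interval -0.20 to 0.72, adjusted p = 0.357, edgeR).

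Adora2a (chr10:75316877-75334784, plus strand) encodes an adenosine receptor that opposes Drd2 in indirect pathway neurons. Levels were 34.8 CPM at the lowest, 69.1 at the median and 79.8 at the highest in PBS mice, and 16.2, 65.0 and 93.9 CPM in HsTX1[R14A] mice. Treated mice 89 and 72 exceeded all PBS mice, mouse 71 was the lowest, and the other 6 lay within the PBS range. Its log2 fold change was 0.02 (SE 0.22, 95% interval -0.43 to 0.48, adjusted p = 0.941, edgeR).

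Of the 3 intracellular signalling genes, Pde10a alone had treated mice above the PBS range. Ppp1r1b (chr11:98348404-98357796, plus strand) ranged from 321 to 658 CPM with a median of 577 in PBS mice and from 153 to 639 with a median of 519 in HsTX1[R14A] mice, with a log2 change of -0.11 (SE 0.19, 95% interval -0.51 to 0.28, adjusted p = 0.656, edgeR). Rgs9 (chr11:109225355-109298129, minus strand), which shortens the signal of inhibitory receptors, ranged from 54.8 to 122 CPM with a median of 97.6 in PBS mice and from 25.3 to 120 with a median of 101 in HsTX1[R14A] mice. Both genes overlapped fully between the groups except for mouse 71, and the log2 fold change of Rgs9 was 0.01 (SE 0.20, 95% interval -0.41 to 0.44, adjusted p = 0.966, edgeR). Pde10a (chr17:8525372-8986648, plus strand), the phosphodiesterase that degrades cyclic AMP and cyclic GMP in both kinds of projection neuron, ranged from 168 to 361 CPM with a median of 284 in PBS mice. In HsTX1[R14A] mice it ranged from 117 to 436 CPM with a median of 338. Treated mice 72, 98 and 81 exceeded all PBS mice while mouse 71 fell below all of them. Pde10a had the largest fold change of the 9 genes, 0.34 on the log2 scale (SE 0.19, 95% interval -0.06 to 0.75, adjusted p = 0.171, edgeR), and it was the one gene of the 9 with a positive estimate in all 36 alternative fits. With each library's length slope added as a covariate the estimate was 0.03 (95% interval -0.40 to 0.46, adjusted p = 0.971, edgeR). Within the library name forms it was 0.24 (95% interval -0.31 to 0.80, 15 mice) and 0.27 (95% interval -0.14 to 0.69, 6 mice).

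The peptide genes showed no common direction. Penk (chr4:4133531-4138819, minus strand) ranged from 176 to 518 CPM with a median of 411 in PBS mice and from 127 to 522 with a median of 402 in HsTX1[R14A] mice, so that the highest levels of the groups were alike. Tac1 (chr6:7554879-7565834, plus strand) ran from 34.6 CPM through a median of 77.7 to 124 in PBS mice and from 30.4 through 66.1 to 105 in HsTX1[R14A] mice. Its top values belonged to PBS mice 103, 90 and 91. Pdyn (chr2:129686565-129699844, minus strand), whose dynorphins act on the kappa opioid receptor, ran from 21.9 CPM through 49.4 to 65.7 in PBS mice and from 21.9 through 54.2 to 61.8 in HsTX1[R14A] mice. Its lowest values were the same to 3 digits in mice 71 and 82. Log2 fold changes were 0.05 for Penk (SE 0.21, 95% interval -0.38 to 0.49), -0.18 for Tac1 (SE 0.23, 95% interval -0.65 to 0.29) and 0.13 for Pdyn (SE 0.19, 95% interval -0.27 to 0.53), with adjusted p of 0.863, 0.548 and 0.615 (edgeR).

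**Figure D3:**
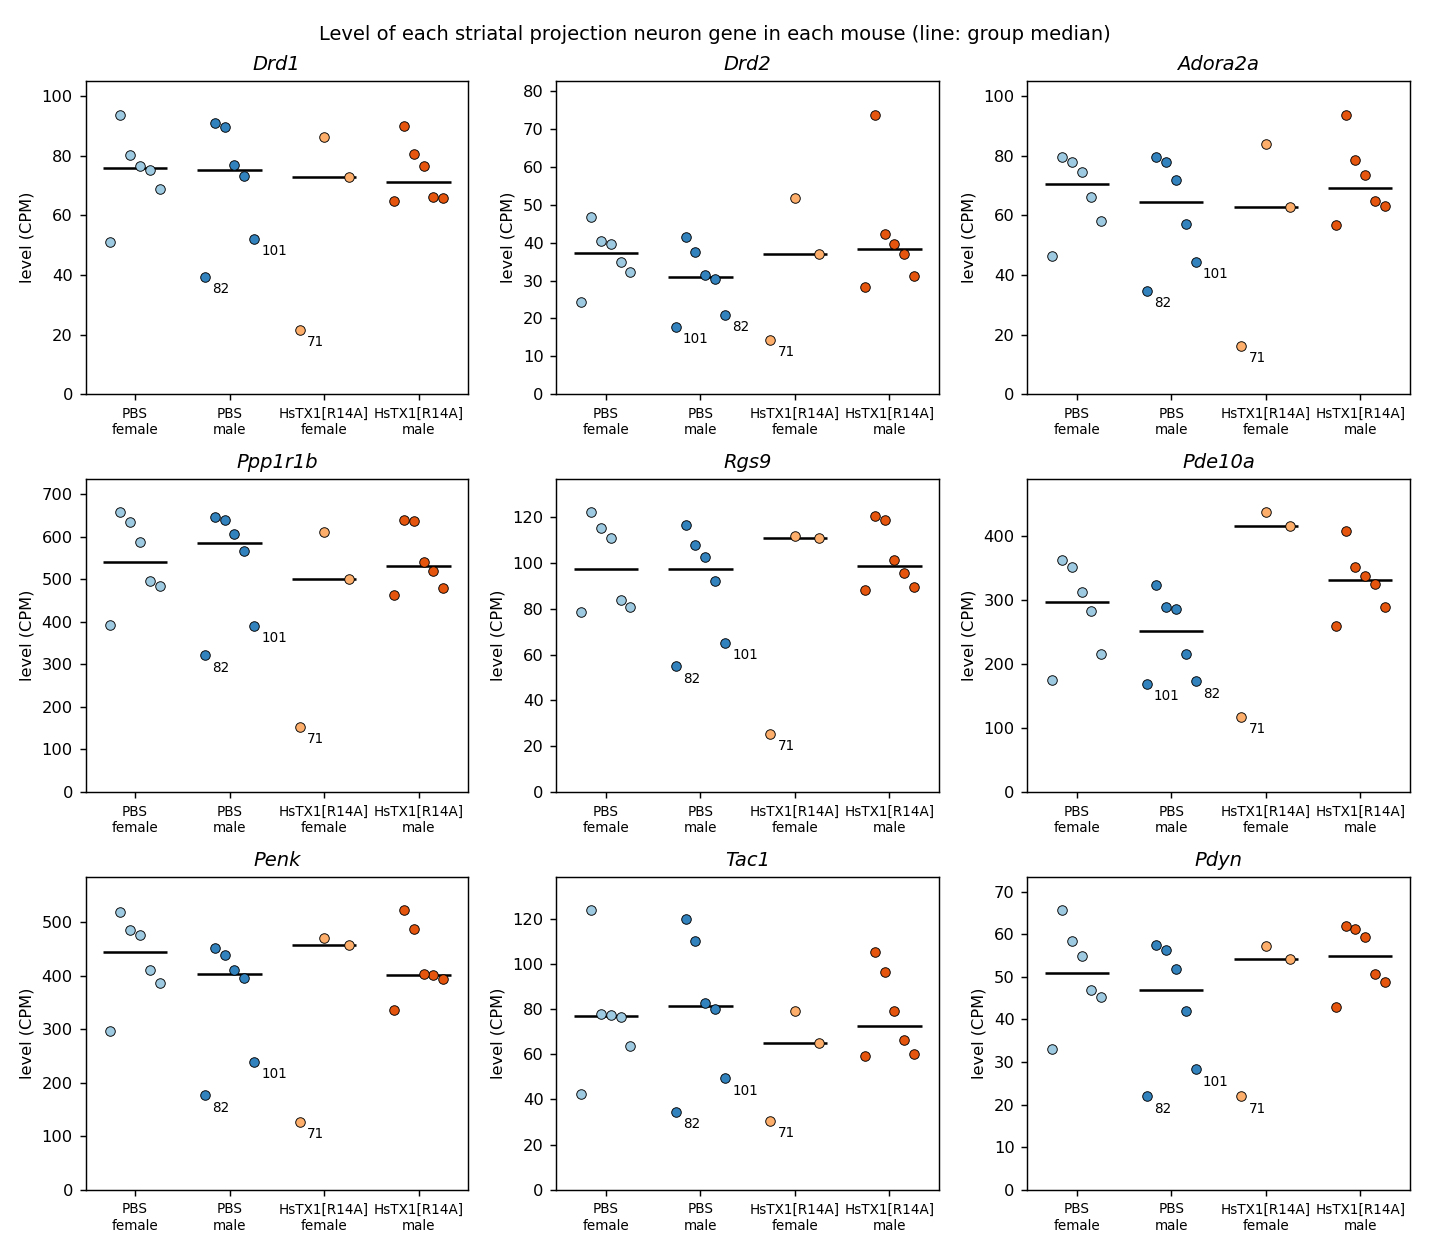
CPM of each gene in each mouse, by treatment and sex, with the group median as a line and mice 71, 82 and 101 numbered. The PBS and HsTX1[R14A] groups overlap in every panel, and mouse 71 is the lowest point of all panels but that of Pdyn, where it ties with mouse 82.

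HsTX1[R14A] female 71 had the lowest level of all 21 mice for 8 of the 9 genes, and for Pdyn it was level with mouse 82. This mouse held the lowest value in 9.26% of all genes tested. Its levels were between 0.235 (Adora2a) and 0.414 (Pdyn) of the median of the other 20 mice, and at most 1.04% of all genes tested lay as far or further below the others. The library was not shallow, with 34271921 counts. Of the 21 further genes shared by both kinds of projection neuron, all 21 were below the median of the 18 mice other than 71, 82 and 101. Below that median were also 4 of 6 direct and 4 of 4 indirect pathway genes. Striatal interneuron genes were mixed, with 5 of 8 below that median and Nos1 at its highest of all mice, 114 CPM. Microglial genes had 7 of 8 below that median. Of 8 genes of all neurons, 4 were below that median, with Snap25 at its lowest of all mice, and their sum of 6491 CPM was the lowest of the treated mice and within the 5757 to 9264 CPM of the 18 mice.

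Markers of some other brain regions were high in the same mouse and those of others low. The 6 genes of midbrain dopamine neurons summed to 180 CPM there, against 46.9 to 122 CPM over the 18 other mice, and all 6 were above the median of those mice. Slc6a3, the dopamine transporter, was at 27.9 CPM in mouse 71 and at 18.3 CPM in the next mouse, HsTX1[R14A] male 88, and it lay below 1 CPM in 16 of 21 mice. The 6 thalamic genes summed to 380 CPM against 132 to 341 CPM in the 18 mice, and the 7 hypothalamic genes to 167 CPM, within the 4.37 to 365 CPM of those mice. Of the cortical genes 6 of 8 were below the median of the 18 mice, and of the olfactory bulb genes 4 of 5, while 2 of 8 cerebellar genes were below it although their sum of 542 CPM was the lowest of the treated mice. The 13 mitochondrially encoded mRNAs were all below the same median and summed to 56300 CPM against 57000 to 185900 CPM. The part of any of these in the low projection neuron genes was not tested.

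PBS males 82 and 101 had low projection neuron genes with other markers beside them. All 9 genes were below the median of the 18 other mice in both, with medians over the genes of -0.96 and -0.71 on the log2 scale, against -1.74 in mouse 71. In mouse 82, 6 of 7 hypothalamic genes were below the median of those mice and all 6 thalamic genes were above it. In mouse 101, 6 of 7 hypothalamic, 5 of 6 thalamic and all 6 midbrain dopamine neuron genes were below it. All 3 mice thus shared low projection neuron genes while the hypothalamic and midbrain genes stood on opposite sides in mouse 71 and in mouse 101. The olfactory bulb and immature neuron genes were also low in all 3, with 4, 5 and 4 of 5 below the median in mice 71, 82 and 101. Of the mitochondrially encoded mRNAs 13, 1 and 2 of 13 were below it. The part of these other lists in the levels of these mice was not tested.

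**Figure D4:**
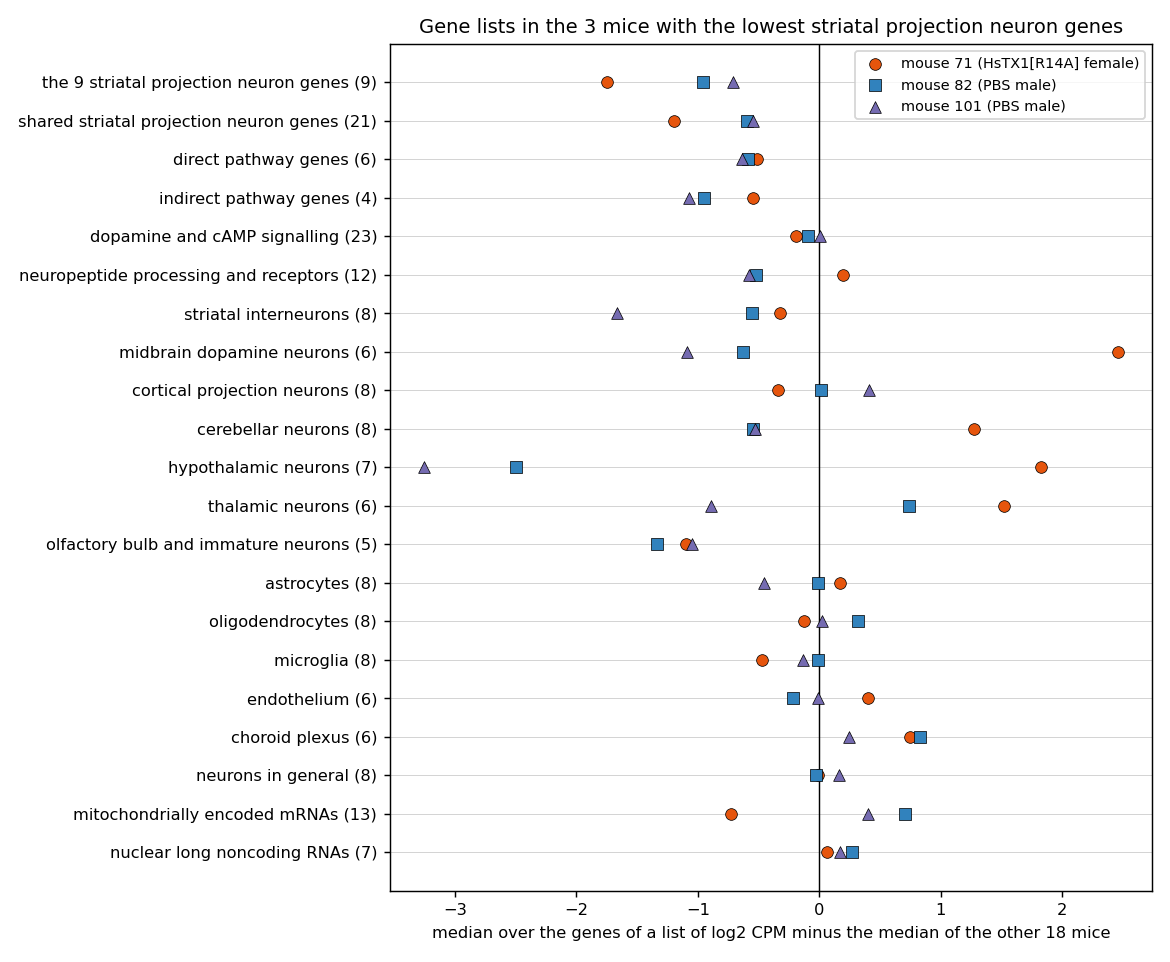
For each gene list (number of genes in brackets), the median over its genes of log2 CPM minus the median of the 18 other mice, in mouse 71 (circles), mouse 82 (squares) and mouse 101 (triangles). The 9 projection neuron genes lie at -1.74, -0.96 and -0.71, while midbrain dopamine neuron genes lie at 2.46 in mouse 71 and at -0.63 and -1.09 in the PBS males.

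Leaving out mouse 71, the lowest treated mouse for all 9 genes, moved all 9 estimates upward, as that choice fixes, and changed 1 call. Over the other 20 mice, 8 of 9 estimates were positive, the median log2 fold change of the 9 genes was 0.19 (-0.02 over all genes), and Pde10a passed, with a log2 change of 0.48 (SE 0.14, 95% interval 0.18 to 0.78, adjusted p = 0.0369, edgeR). In that fit 20.4% of all genes were called. Drd2 followed at 0.41 (SE 0.18, adjusted p = 0.0982). The 8 other treated mice lay between 64.8 and 90.0 CPM for Drd1 and between 259 and 436 CPM for Pde10a.

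With all 3 low mice left out, from both groups, no call remained. Pde10a then had a log2 change of 0.38 (SE 0.14, 95% interval 0.08 to 0.68, unadjusted p = 0.0167, adjusted p = 0.0823, edgeR), Drd2 0.26 and Tac1 -0.24, and the other 6 lay between -0.09 (Ppp1r1b) and 0.09 (Pdyn). In this fit 0% of all genes were called (0 of 16303, 6305 with an unadjusted p under 0.05, lowest adjusted p 0.0691). The intervals narrowed without these mice, from -0.38 to 0.49 to -0.19 to 0.27 for Penk and from -0.41 to 0.44 to -0.18 to 0.27 for Rgs9. These mice were chosen for their low values of these same genes. Leaving them out lowers the spread by construction, so the narrower intervals do not measure a better precision, and the interval of Pde10a above 0 carries the same limit.

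**Figure D5:**
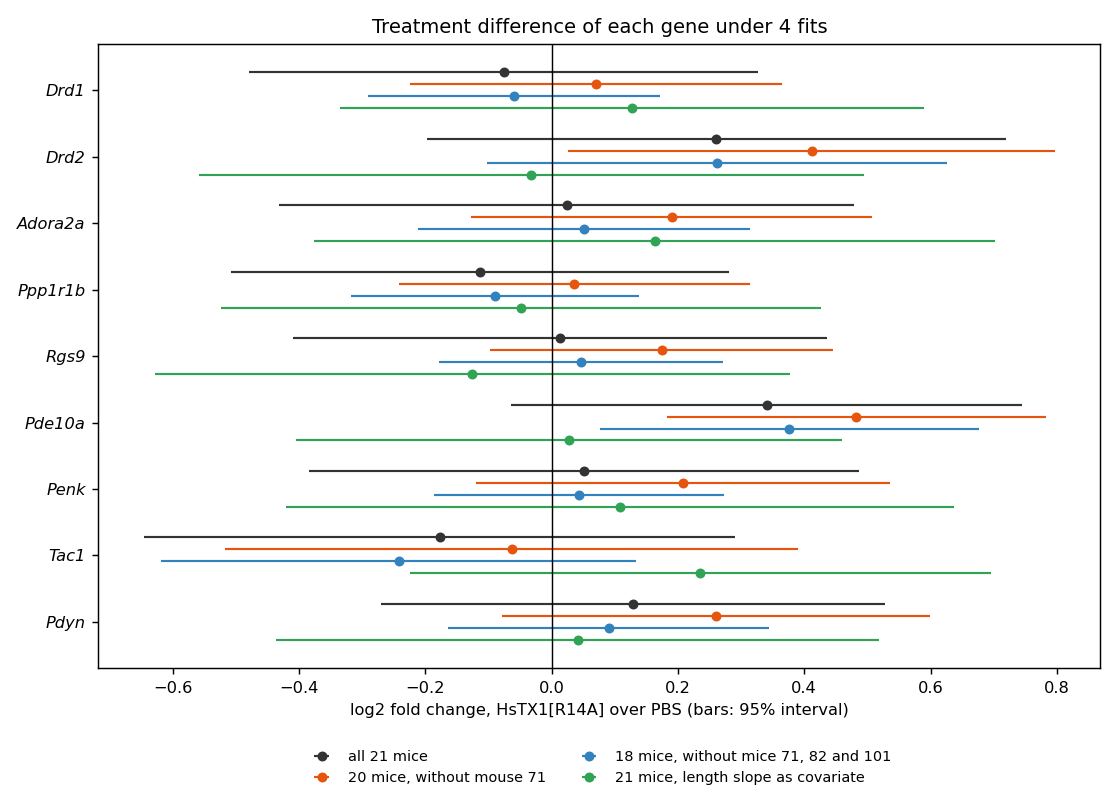
Treatment log2 fold change (HsTX1[R14A] against PBS) for each gene with its 95% interval, from all 21 mice, without mouse 71, without mice 71, 82 and 101, and from all mice with the length slope as a covariate. The interval for Pde10a lies above 0 in the fits without the low mice (0.18 to 0.78 and 0.08 to 0.68) and includes 0 with all mice and with the length slope. The low mice were chosen by their values of these genes, which narrows the intervals without them.

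The balance of the receptors was described by the log2 CPM of Drd1 minus that of Drd2 in each mouse. It was 0.55 at the lowest, 1.05 at the median and 1.94 at the highest in PBS mice and -0.16, 0.81 and 1.51 in HsTX1[R14A] mice. HsTX1[R14A] male 81 was the one mouse with less Drd1 than Drd2, and PBS female 103 had the highest difference. Mouse 71 was at 0.60, within the range of the PBS mice, although both receptors were at their lowest there. The length slope was lowest of all mice in mouse 103 (-0.384) and second highest in mouse 81 (0.200), and the part of length in this difference was not tested. Means of log2 CPM over Drd1, Tac1 and Pdyn minus those over Drd2, Adora2a and Penk were -0.57 ± 0.18 (SD, n = 12) under PBS and -0.64 ± 0.28 (SD, n = 9) under HsTX1[R14A], with ranges of -0.91 to -0.28 and -1.21 to -0.28 that overlapped.

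Neither sex nor its interaction with treatment was called for any of the 9 genes. Between females and males 9 of 16303 genes passed (0.0552%, edgeR), none of them a projection neuron gene, and the 9 estimates of female minus male lay between -0.19 (Tac1) and 0.12 (Pde10a) on the log2 scale. For the interaction 0 of 16303 genes passed (0%; 270 with an unadjusted p under 0.05; 0 by limma/voom and by DESeq2). All 9 interaction estimates were negative, from -0.57 (Drd2, 95% interval -1.49 to 0.35) to -0.25 (Pde10a, 95% interval -1.09 to 0.60). The treated females numbered 3, 1 of them mouse 71, and Penk was at 127, 458 and 470 CPM in them. Without mouse 71 the estimates lay between -0.19 and 0.17, with 6 of 9 negative, and without mice 71, 82 and 101 all 9 were positive.

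Other genes of the same neurons were counted from lists of known markers. Of 21 genes shared by both pathways, 1 was called, beside 31.6% of all genes. This was Ido1, an enzyme of tryptophan breakdown, and it was lower, with 9.96 ± 5.24 CPM (SD, n = 12) in PBS mice, 5.56 ± 2.66 CPM (SD, n = 9) in treated mice and a log2 change of -0.98 (SE 0.31, adjusted p = 0.0279, edgeR). Ido1 was lowest of all in mouse 71, at 0.955 CPM, and without that mouse its log2 change was -0.81 (adjusted p = 0.0494, edgeR). The median over the 21 was 0.07, against -0.01 over all genes. Bcl11b, a transcription factor of these neurons, was at 121 ± 29.3 and 151 ± 29.7 CPM (adjusted p = 0.06), and Actn2 at 16.6 ± 5.01 and 21.6 ± 7.23 CPM (adjusted p = 0.107). Without mouse 71, Bcl11b and Actn2 were called higher with log2 fold changes of 0.41 and 0.53 (adjusted p = 0.0418 and 0.0402) in the fit that called 20.4% of all genes, and Lrrc10b, the gene with the second smallest p among those lower, was at -0.32 with all mice and -0.19 without mouse 71 (adjusted p = 0.158 and 0.282). Without the 3 low mice none of the 21 was called, in a fit that called 0 of all 16303 genes.

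Genes listed as markers of a pathway gave 1 call, beside 31.6% of all genes. Of 6 direct pathway genes 1 was, Chrm4, a muscarinic receptor, with 12.7 ± 3.74 CPM in PBS and 17.8 ± 5.28 CPM in treated mice and a log2 change of 0.52 (SE 0.18, adjusted p = 0.0342, edgeR), and 0.61 without mouse 71 (adjusted p = 0.0347). Slc35d3 and Gnb4 had log2 fold changes of 0.10 and -0.04, and Isl1, a transcription factor, had -0.39 (adjusted p = 0.229). Of 4 indirect pathway genes tested, 0 were called (edgeR). Sp9 and Six3, transcription factors, had log2 fold changes of 0.44 (adjusted p = 0.136) and 0.06, and Gpr6, a receptor that raises cyclic AMP, and Upb1 had -0.06 and -0.01. The median log2 fold change was -0.01 over the direct and 0.02 over the indirect pathway genes. In mouse 71 Chrm4 ranked 6 from the lowest of all mice. Ebf1 and Eya1 of the direct pathway list lay above the median of the other mice there. Which cells made these genes was not examined, so the call of Chrm4 cannot be placed in direct pathway neurons.

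Dopamine and cyclic AMP signalling genes, most of which are used by many kinds of neuron, had 7 of 23 called, 5 higher and 2 lower, beside 31.6% of all genes and with a median log2 fold change of 0.01. The smallest p belonged to Pde4d, a phosphodiesterase of cyclic AMP, at 23.2 ± 6.12 CPM (SD, n = 12) and 36.1 ± 5.22 CPM (SD, n = 9) with a log2 change of 0.69 (SE 0.13, adjusted p = 0.0151, edgeR). Drd3, a dopamine receptor of the ventral striatum, was low at 0.310 ± 0.172 and 0.719 ± 0.334 CPM, with a log2 change of 1.28 (SE 0.36, adjusted p = 0.02). The genes called lower were Ppp1cb, a catalytic subunit of protein phosphatase 1, at -0.30 (adjusted p = 0.0279), and Ppp3ca, a subunit of calcineurin, at -0.30 (adjusted p = 0.0357), and both were lowest of all mice in mouse 71. Prkar1b (0.35), Gnao1 (0.38) and Pde2a (0.32), named after their values were seen, were also higher. Without mouse 71 Ppp1cb and Ppp3ca missed the threshold at log2 fold changes of -0.28 and -0.25 (adjusted p = 0.0558 and 0.0793, edgeR), in a fit that called 20.4% of all genes. Without the 3 low mice 0 of 23 were called, in a fit that called 0 of all 16303 genes.

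Of the 12 genes that process neuropeptides or receive them, 5 were higher and none lower, beside 15.5% and 16.1% of all genes, with a median log2 fold change of 0.31 against -0.01 over all genes. Oprm1, the mu opioid receptor on which enkephalins act, was at 1.28 ± 0.589 CPM in PBS and 2.47 ± 1.30 CPM in treated mice, a log2 change of 1.08 (SE 0.27, adjusted p = 0.0169, edgeR). Pcsk1, a convertase that cuts peptide precursors, rose by 0.47 (SE 0.13, adjusted p = 0.0198). Named after their values were seen, Oprd1, the delta opioid receptor (0.66), Tacr1, the receptor of substance P (0.64), and Pam, which amidates peptides (0.27), were the other 3. Scg5 and Oprk1, the kappa opioid receptor, had log2 fold changes of -0.31 (adjusted p = 0.0608) and -0.13 (adjusted p = 0.445). Oprm1 was at 4.09 CPM in mouse 71, second highest of all mice, and without that mouse its log2 fold change was 1.02 (adjusted p = 0.0347, edgeR). In that fit 4 of the 12 were called, beside 20.4% of all genes. With the length slope as a covariate, within the more common library name form, or without the 3 low mice, 0 of the 12 were called. Likewise 0 of the genes of the other pathway lists were, in fits that called 0 of all genes tested. With the name form as a covariate, 2 of these 12 genes, 3 of the 23 signalling genes and none of the shared, direct or indirect pathway genes were called, beside 1999 of all 16303 genes.

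Marker lists of other cells were counted in the same fit, in which 15.5% of all genes were called higher and 16.1% lower. Among striatal interneuron genes 1 of 8 was called, Nos1, which was higher, and among midbrain dopamine neuron genes 1 of 6, Slc6a3, with a log2 change of 3.31 (adjusted p = 0.0171, edgeR) that was 2.25 and no longer called without mouse 71 (adjusted p = 0.0787). No gene was called among the 8 cortical, 8 cerebellar, 7 hypothalamic, 6 thalamic, 5 olfactory bulb, 6 choroid plexus and 7 nuclear noncoding RNA genes, whereas without mouse 71 1 hypothalamic gene (Pomc) and 1 choroid plexus gene (Otx2) were called lower. Of the 8 general neuron genes 2 were higher (Eno2 and Syt1), and of the 6 endothelial genes 1 (Flt1). Oligodendrocyte genes had 4 of 8 lower (Opalin, Mobp, Mog and Mbp), microglial genes 3 of 8 lower (C1qb, P2ry12 and Aif1), and astrocyte genes 1 higher (Fgfr3) and 2 lower (Gfap and Aqp4) of 8. The mitochondrially encoded mRNAs had 12 of 13 lower, or 7 of 13 without mouse 71, where 20.4% of all genes were called, and their median log2 fold change was -0.69 with and -0.66 without that mouse. Without the 3 low mice no gene of any of these lists was called, in a fit that called 0 of all 16303 genes. The same held with the length slope as a covariate and within the more common library name form, where 0 of all genes were called. With the slope the median log2 fold change was -0.41 for the mitochondrially encoded mRNAs. It was -0.07 for microglial genes, against -0.30 without the slope, and -0.29 for oligodendrocyte genes, against -0.28. The part of these lists in the treatment values of the projection neuron genes was not tested.

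The genes with the pattern most like that of the 9 were found by Pearson's r, over 21 mice, between the log2 CPM of each gene and the mean of the 9, both as residuals from the 4 group means. Of 13302 genes whose mean log2 CPM was 1 or more, 49 had r of at least 0.8, the 9 themselves included in that search. Set against the mean of the other 8 instead, 7 of the 9 reached 0.8, led by Ppp1r1b and Penk (0.98 each), and Drd2 (0.77) and Tac1 (0.72) did not. The highest value outside the 9 was that of Pde1b, a phosphodiesterase activated by calcium, with r = 0.98. High values were also those of Serpina9 (0.97), Slc35d3 (0.97) and Gpr6 (0.95), then Rasgrp2 (0.94), Sh3rf2 (0.94), Cd4 (0.94), Rarb (0.94) and Pde7b (0.92). Without mouse 71 these values lay between 0.81 (Pde7b) and 0.96 (Pde1b). Slc35d3 is a gene of the direct and Gpr6 of the indirect pathway. None of these genes was called between treatments, beside 31.6% of all genes, and their log2 fold changes lay between -0.21 (Cd4) and 0.16 (Sh3rf2). They were picked for following the 9 genes from mouse to mouse, so their lack of calls adds nothing separate.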

How the data were processed

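Brain RNA of 21 SAMP8 mice was sequenced, and the authors made estimated counts per gene with the nf-core/rnaseq workflow (STAR alignment to GRCm38, then Salmon), which they deposited without normalization. The deposited estimated counts were rounded here (90.5% were whole to within 0.01). The sample titles spell the peptide HxTX1[R14A]. The labels and the study's methods name different library kits, and the strand setting of the counting is not stated, so reads of Ppp1r1b, Pde10a and Penk cannot be told from those of genes on the opposite strand. Another 53 columns of per-sample values (37 of CPM, 16 of counts) and the authors' comparison columns (fold changes, mean levels and p-values) were not used.

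Low genes were removed with filterByExpr over the 4 groups, and edgeR 4.0.16 (R 4.3.3, TMM scaling, quasi-likelihood test) was fitted to all genes with terms for sex and treatment. Benjamini-Hochberg adjustment ran over all genes with a threshold of 0.05, and log2 CPM used a prior count of 2. Alternatives were limma 3.58.1 (voom, with and without sample weights), DESeq2 1.42.0, 1 surrogate variable (sva 3.50.0), other scalings, filters and covariates, subsets and leaving out each mouse. Depth was 14917174 to 47613792 counts per mouse. Same-group libraries differed by more than sampling noise in all 48 pairs, and sex-linked genes matched the labelled sex in 21 of 21. The labels give 1 mouse per library, so p-values measure the spread between mice. The scripts were tested on simulated data.

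The 9 genes and all gene lists were chosen with earlier results of these data known. From each pathway list the 2 genes with the smallest p among those higher and the 2 among those lower were named, and of the 10 genes most like the 9 by correlation all but 1, which is not reported here. Promoter windows came from RefSeq (GRCm38.p6), which matched 6 of the 9 genes.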

Additional observations from a re-analysis of the deposited data

Results flagged for a closer look

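HsTX1[R14A] female 71 stood apart from the other 8 treated mice in 8 of the 9 projection neuron genes. The measure was the gap between the lowest mouse and its nearest neighbour as a share of the range of log2 CPM over the 9 mice, and values above 0.493 (Dixon's critical value at 95%) were taken as standing apart. The share was 0.799 for Rgs9, 0.774 for Ppp1r1b, 0.77 for Drd1 and 0.713 for Adora2a. It was 0.69 for Penk, 0.649 for Pdyn, 0.605 for Pde10a and 0.535 for Tac1. For the mean of all 9 genes it was 0.777. Drd2, for which male 81 lay far above the others, did not pass. Of 40 groups tested, 9 stood apart, all with mouse 71 as the lowest, where chance gives about 1 in 20, and the genes rise and fall together, so these are not independent.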

How the results depend on the processing

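None of the 9 genes was called between treatments under any of 36 alternatives except that leaving out HsTX1[R14A] female 71 gave 1 (range 0 to 1 over mice left out), Pde10a at 0.48. Its estimate ran from 0.03 (length slope as covariate) to 0.48, while the sign of the others turned in 2 (Drd2, Ppp1r1b) to 14 (Rgs9) of 36. The count over all genes moved far more: from 5144 to 2984 without the sex term, 1999 with the library name form as covariate, 216 with 1 surrogate variable, and 0 with the length slope (1865 with an unadjusted p under 0.05), within the more common (5797) or the other form (532), in females (3312) or males (4440) alone, and without mice 71, 82 and 101 (6305, chosen after seeing the data). Leaving out 1 mouse gave 2289 (PBS male 90) to 6614, with 3332 without HsTX1[R14A] mouse 71, 3005 without 98, 3263 without 81 and 3121 without 88. The cause was not tested. Of the pairs in PBS mice 14 passed by Pearson's r without mice 82 and 101, and 21 to 33 with 1 mouse left out. Relations with the length slope gave 0 to 1, with 1 without PBS male 82. Genes called between sexes were 9, 26 by DESeq2, 2582 with sample weights and 1 with at least 10 counts in every mouse, none among the 9. No paired analysis was possible because the mouse numbers are not shared between groups and the cages, within which mice were randomized, are not in the labels. The number of mice and not depth limits these results, and with 3 treated females the 95% interval of the interaction for Drd2 spans -1.49 to 0.35 on the log2 scale.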
